A study of Mus musculus with 6 samples.

Results

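The clustered, replication-dependent histone genes of the mouse were described in fully-grown germinal vesicle (GV) oocytes of 2 genotypes. They were taken as every gene row whose symbol starts with Hist1h, Hist2h, Hist3h or Hist4h, and 68 of the 23235 gene rows met this rule. By histone type they were 6 genes of the linker histone H1, 18 of H2A, 19 of H2B, 12 of H3 and 13 of H4. By cluster, 54 lay in Hist1 on chromosome 13, 10 in Hist2 on chromosome 3, 3 in Hist3 on chromosome 11 and 1, Hist4h4, on chromosome 6.

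Both groups were C57BL/6 oocytes collected 44 to 48 h after PMSG, a hormone that stimulates follicle growth. One group was wild type (WT) and the other was a knock-out for Rtcb (KO), whose product is a ligase known for sealing spliced tRNAs and Xbp1 mRNA. Each group had 3 libraries of 10 oocytes each, and the sample titles carry 6W in both groups, which the labels do not spell out. Which stretch of Rtcb was deleted, and what drove the deletion, is not given here. Oligo-dT primers captured the RNA and primed its reverse transcription (Smart-seq2, which copies full-length transcripts), and the lysis buffer held ERCC spike-in RNA. Values are spike-in normalized FPKM (fragments per kilobase of transcript, scaled to the library), which are per length. This allows for transcript length, but not for genes that oligo-dT reaches unequally or that share reads with close copies. Comparisons between genes are therefore of the listed values only. Whether each library had its own animals is not in the labels, so a p-value here weighs a difference against library spread alone, which may be technical.

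Core histones H2A, H2B, H3 and H4 form the nucleosome, and H1 binds the DNA that links nucleosomes. In dividing somatic cells the clustered genes are transcribed mainly in S phase, and their mRNAs are the ones that normally lack a poly(A) tail. Their 3′ end is instead a short stem-loop, bound by SLBP and cut by the U7 snRNP with its endonuclease. A fully grown oocyte has stopped replicating its DNA and holds a store of maternal mRNA for the embryo. A stem-loop end carries no tail for an oligo-dT primer, so the values below are of the histone transcripts that this priming could reach. How large a part of all histone mRNA that is was not tested.

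The stem-loop itself is printed here because it is the feature that sets these mRNAs apart, and because the genes that differed between the genotypes carry several of its variants. Each line gives 5 bases, the 16-base stem-loop in capitals and 5 more bases, 5′ to 3′ on the sense strand of the GENCODE vM21 transcript:
Hist1h1e: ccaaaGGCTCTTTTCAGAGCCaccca
Hist1h2bb: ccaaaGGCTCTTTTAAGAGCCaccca
Hist1h3c: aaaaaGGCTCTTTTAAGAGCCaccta
Hist1h3g: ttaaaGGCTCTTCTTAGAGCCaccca
Hist1h4b: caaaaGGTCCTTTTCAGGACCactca
Hist1h4d: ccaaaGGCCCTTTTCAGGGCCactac
Hist1h4c: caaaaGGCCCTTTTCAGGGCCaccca
Hist2h3c1: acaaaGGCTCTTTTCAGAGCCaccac
Hist3h2a: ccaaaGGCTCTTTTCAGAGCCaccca
The first 6 belong to genes that were higher in KO and the last 3 to genes that were lower. The transcripts were searched on the sense strand for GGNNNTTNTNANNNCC with a fully paired 6-base stem. It was found in 46 of the 68 genes (67.6%) and in 23 of 21810 other protein-coding genes (0.105%). The form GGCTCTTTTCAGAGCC was in 26 genes, of which 3 encode H1, 10 H2A, 8 H2B and 5 H3. None of the 12 H4 genes with the element had it, and 7 of them had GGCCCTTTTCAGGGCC. Hist1h3g was the 1 gene with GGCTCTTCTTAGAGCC and Hist1h4a the 1 gene with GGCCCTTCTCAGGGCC. The annotated transcripts of Hist1h2bc, Hist1h2aa, Hist1h2ba, Hist1h1a and Hist1h1b held no match, which says only that these letters are not in those gene models.

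Rtcb, listed as D10Wsu52e, was at 136, 133 and 113 FPKM in WT and at 3.82, 2.62 and 2.49 FPKM in KO (log2 fold change −5.02, SE 0.157), so each library carried its labelled genotype at this transcript. Over the 12029 genes that averaged 1 FPKM or more, limma called 9.29% higher and 54.0% lower in KO, at an adjusted p under 0.05, and the median log2 fold change was −0.47. That split depends on the spike-in scaling, which put 1 common factor on all WT values and another on all KO values, at a KO to WT ratio of 0.667. With both factors removed, 25.7% of genes were higher and 18.0% lower, around a median of 0.043. When all libraries were set to equal totals, 19.0% were higher and 25.8% lower, and with a median-ratio rescaling 22.8% were higher and 21.7% lower. Of 13 oocyte markers 12 were tested, and their summed level was 22799 to 27681 FPKM in WT and 15747 to 17322 FPKM in KO. Of 16 granulosa and cumulus markers, from the cells around the oocyte, 6 were tested. The 16 summed to 61.3 to 67.4 FPKM in WT and 48.3 to 61.7 FPKM in KO, and none was at 0 in every library. Foxl2, Amh and Fshr were all under 1 FPKM. Inha, however, averaged 6.38 FPKM in WT and 10.7 FPKM in KO, with KO 3 highest at 17.8 FPKM. Hsd17b1 averaged 2.44 and 2.72 FPKM, Kitl 2.29 and 2.58 FPKM and Cyp11a1 1.87 and 1.81 FPKM. None of these tested markers was called as deposited. Kitl was called higher with the median-ratio rescaling (adjusted p = 0.0478) and with the factors removed (adjusted p = 0.0348). These markers were named after their values were seen. Cyp19a1 (37.5 to 19.8 FPKM) was the 1 marker called lower as deposited, and Nr5a2 (9.45 to 13.4 FPKM) the 1 called higher, a call lost without 4 of the 6 libraries (adjusted p up to 0.0981). The part of these levels in the histone results was not tested. In such bulk samples fewer cells of a type and less RNA per cell cannot be told apart.

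The 68 histone genes together were a small pool, at 0.0513% to 0.0575% of a library's summed FPKM in WT and 0.0530% to 0.0686% in KO. Of these genes 15 were listed at 0 in every library, 24 had values above 0 but a mean under 1 FPKM, and 29 were tested. By limma on log2(FPKM + 1), 9 of the 29 were higher in KO, where 9.29% of all tested genes were, 5 were lower, where 54.0% were, and 15 were not called. At an unadjusted p under 0.05 there were 16, 10 higher and 6 lower. The 3 KO values lay all above the 3 WT values for 10 of the 29, against 10.2% of all tested genes, and all below for 5, against 57.5%. The median log2 fold change of the 29 was 0.14, beside −0.47 over all tested genes. With the genotype factors removed it was 0.51, beside 0.043. Fold changes on this scale understate the change of low genes.

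All 9 genes called higher, which were Hist1h1a, Hist1h1b, Hist1h1e, Hist1h2ba, Hist1h2bb, Hist1h3c, Hist1h3g, Hist1h4b and Hist1h4d, were also called higher with equal totals, with the median-ratio rescaling and with the factors removed. Each of those scalings called 12, the same 9 with Hist1h1d, Hist1h3f and Hist4h4, which were named after their values were seen. The 5 lower calls depended on the scaling. Hist1h2bc alone stayed lower with equal totals and with the median-ratio rescaling. With the factors removed limma called 0 lower, with 1 at an unadjusted p under 0.05, again Hist1h2bc. The median log2 fold change of all tested genes was −0.47 as deposited. It was −0.094 with equal totals, −0.020 with the median-ratio rescaling and 0.043 with the factors removed. Each of these scalings thus moved the median upward, which favours keeping a higher call and losing a lower one. The contrast between the 9 higher and the 5 lower calls is therefore no separate support for either.

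The filter bears on these counts. Of the 29 tested genes 6 had a mean under 1 FPKM in WT and passed through their KO values, and 5 of these 6, Hist1h1b, Hist1h1e, Hist1h2bb, Hist1h3c and Hist1h4b, were among the 9 called higher. Among the 23 genes that averaged 1 FPKM or more in both genotypes, 4 were higher (Hist1h1a, Hist1h2ba, Hist1h3g and Hist1h4d) and 5 lower, where 8.44% and 54.9% of the 11330 genes of that kind were. The median log2 fold change of these 23 was −0.27, so the 0.14 over the 29 tested genes rests in part on genes that the filter admitted through KO. The same holds for the 10 genes whose 3 KO values lay all above their 3 WT values, since all 6 admitted genes were among them. The median of 0.51 with the factors removed also covers these 6 genes. With no filter, limma called 6.26% of 18553 genes higher and 35.7% lower, and of 53 histone genes with a value above 0 it called 9 higher and 5 lower. Of the 9 higher calls 7 were shared with the filtered fit. Hist2h2ab and Hist2h2ac, both listed at 0 in every WT library, were added, and Hist1h1a and Hist1h2ba were lost. Just outside the filter stood Hist1h2bm (mean over all libraries 0.904 FPKM) and just inside it Hist1h1d (1.07 FPKM).

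**Figure D1:**
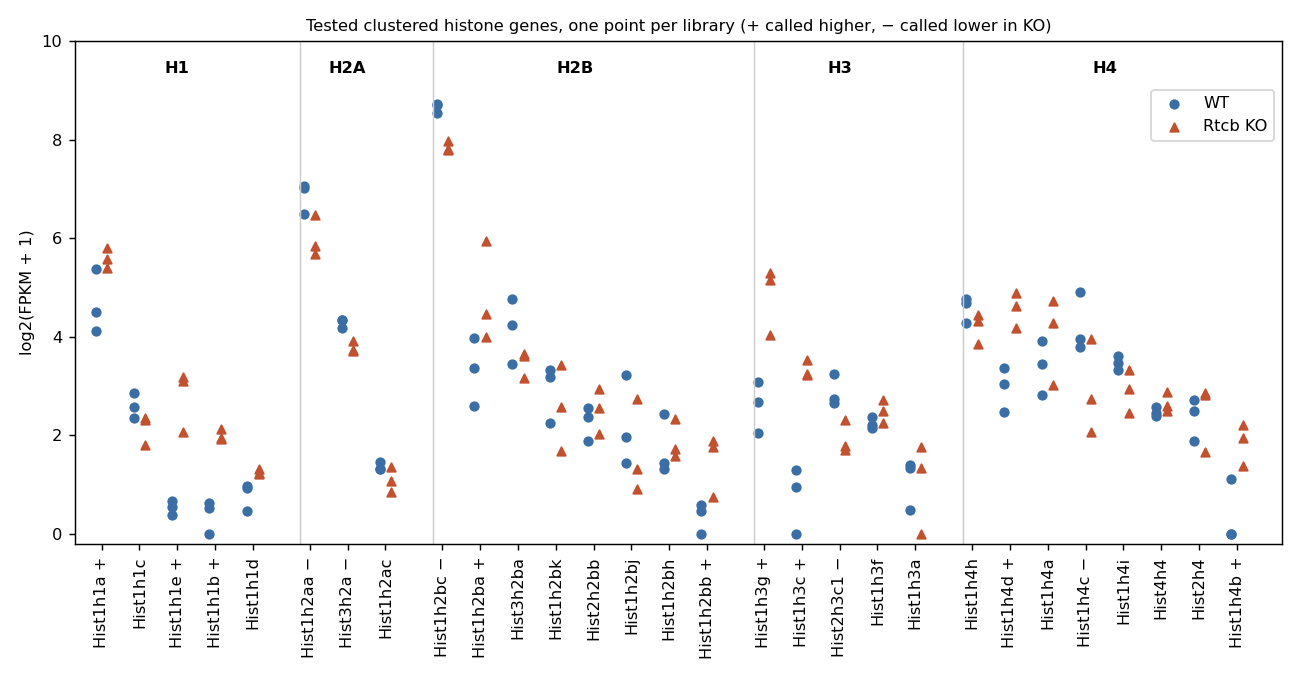
Each point is log2(FPKM + 1) of 1 gene in 1 library, for the 29 tested clustered histone genes grouped by histone type (circles WT, triangles Rtcb KO, 3 libraries each). Hist1h2bc stands above every other gene in both genotypes, and 10 genes have their 3 KO points above their 3 WT points. Of these 10, 6 passed the filter only through their KO values.

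Counts by histone type are read beside 9.29% higher and 54.0% lower over all tested genes. Of 5 tested linker histone genes 3 were higher and 0 lower by limma (4 and 0 at an unadjusted p under 0.05). Of these 5, Hist1h1b, Hist1h1d and Hist1h1e passed the filter only through their KO values, which leaves Hist1h1a and Hist1h1c with both means at 1 FPKM or more. Hist1h1a was the most abundant, at 21.7, 16.3 and 40.4 FPKM in WT and 47.2, 54.6 and 41.0 FPKM in KO. The highest WT library and the lowest KO library were nearly level. Its log2 fold change was 0.93 (SE 0.29, adjusted p = 0.0231), a call lost when WT 1, WT 2, KO 1 or KO 2 was left out (adjusted p up to 0.0684) and with no filter.

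Hist1h1e was at 0.583, 0.452 and 0.310 FPKM in WT and at 8.13, 3.23 and 7.57 FPKM in KO. All WT libraries were under 1 FPKM and all KO libraries above 3 (log2 fold change 2.26, SE 0.29, adjusted p = 0.000426). Hist1h1b was at 0.430, 0.555 and 0 FPKM in WT and at 2.87, 2.81 and 3.40 FPKM in KO, with the KO libraries close together (log2 fold change 1.62, adjusted p = 0.00038). Hist1h1c, another somatic linker histone, had the second highest mean of the type. Its levels were 6.31, 4.12 and 4.93 FPKM in WT and 4.13, 3.96 and 2.47 FPKM in KO, which overlapped, and it was not called (log2 fold change −0.44, adjusted p = 0.0991). Hist1h1d was not called as deposited (0.749 ± 0.325 to 1.40 ± 0.0889 FPKM, mean ± SD, n = 3, adjusted p = 0.0563). Hist1h1t, the testis linker histone, was listed at 0 in all libraries except KO 1 (0.111 FPKM).

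Of the H2A genes 7 of 18 were at 0 everywhere and 3 were tested, 2 of them lower, where 54.0% of all tested genes were. Hist1h2aa, which encodes the testis H2A variant that oocytes also store, made up most of the H2A pool. It was at 88.7, 133 and 129 FPKM in WT and at 50.4, 87.6 and 56.5 FPKM in KO, where KO 2 came near WT 1. The log2 fold change was −0.86 (SE 0.23, adjusted p = 0.0119), and −0.28 with the factors removed, where it was not called (adjusted p = 0.347). Hist3h2a was at 17.2, 19.4 and 19.4 FPKM in WT and at 12.3, 14.1 and 12.1 FPKM in KO, a separation with little spread (log2 fold change −0.51, SE 0.12, adjusted p = 0.00718). Its sign turned with the factors removed (0.039). Hist1h2ac was near the filter (1.57 ± 0.154 to 1.15 ± 0.372 FPKM) and not called. Among the untested H2A genes Hist2h2ac was at 1.27, 0.544 and 1.42 FPKM and Hist2h2ab at 1.25, 0.536 and 0.467 FPKM in the KO libraries, and both were listed at 0 in all WT libraries.

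The H2B pool was dominated by 1 gene. Hist1h2bc was at 373, 425 and 418 FPKM in WT and at 220, 250.1 and 225 FPKM in KO, the highest of all 68 genes in every library. All KO libraries were lower than all WT libraries (log2 fold change −0.80, SE 0.093, adjusted p = 0.000287). The fall was larger than the median of all tested genes under all 4 scalings, and with the factors removed it was −0.22 and no longer called (adjusted p = 0.088). Its annotated transcript has 2 exons and 1156 bases, and no stem-loop.

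Hist1h2ba encodes the testis H2B variant and is the divergent neighbour of Hist1h2aa. It was at 5.03, 9.38 and 14.8 FPKM in WT and at 14.9, 60.7 and 21.1 FPKM in KO. The groups met at WT 3 and KO 1, and KO 2 stood far above the others (log2 fold change 1.48, SE 0.52, adjusted p = 0.0356). Without KO 2 the log2 fold change was 0.91 (adjusted p = 0.0725), and the call was also lost without WT 1, WT 2 or KO 3 and with no filter. Hist1h2bb was at 0.381, 0 and 0.506 FPKM in WT and at 2.39, 2.69 and 0.669 FPKM in KO (log2 fold change 1.11, adjusted p = 0.0171), lost without WT 2 or KO 1 (adjusted p up to 0.0597). This gene passed the filter only through its KO values. Hist3h2ba, the third most abundant of the type, was at 17.9, 26.2 and 9.96 FPKM in WT and at 11.6, 8.03 and 11.3 FPKM in KO. These groups overlapped and the gene was not called (adjusted p = 0.0911), except when WT 3, the lowest WT library, was left out (log2 fold change −1.02, adjusted p = 0.00589). The other 4 tested H2B genes had log2 fold changes from −0.55 to 0.24, and none was called. Hist3h2bb-ps, a pseudogene by its symbol, was at 1.16, 0.498 and 0.512 FPKM in WT and listed at 0 in all KO libraries.

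Of 5 tested H3 genes 2 were higher and 1 was lower, beside 9.29% and 54.0% of all tested genes. Hist1h3c, 1 of the 2, passed the filter only through its KO values. Among the 4 H3 genes with both means at 1 FPKM or more, 1 was higher and 1 lower. Hist1h3c was at 0, 0.942 and 1.45 FPKM in WT and at 10.6, 8.44 and 8.32 FPKM in KO, the largest log2 fold change of the 29 genes on the deposited values (2.58, SE 0.31, adjusted p = 0.000335). With the factors removed that of Hist1h3g was larger (2.60 against 2.51). Hist1h3g was at 3.15, 5.42 and 7.43 FPKM in WT and at 15.3, 38.3 and 34.7 FPKM in KO, where KO 1 was the lowest of its group and still above every WT library. Its log2 fold change was 2.23 (SE 0.37, adjusted p = 0.00128). Hist2h3c1 went the other way, from 5.65, 8.50 and 5.28 FPKM to 2.43, 3.94 and 2.23 FPKM (log2 fold change −0.95, adjusted p = 0.00757). It was not called once the factors were removed (−0.43, adjusted p = 0.126). Hist1h3f overlapped between the groups and was not called (3.75 ± 0.392 and 4.66 ± 0.909 FPKM, adjusted p = 0.237), and Hist1h3a was at 0 in KO 1 but at 1.53 and 2.41 FPKM in the other KO libraries.

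H4 had 8 tested genes, of which 2 were higher and 1 lower, beside 9.29% and 54.0% of all tested genes. Hist1h4b, 1 of the 2, passed the filter only through its KO values. Among the 7 H4 genes with both means at 1 FPKM or more, 1 was higher and 1 lower. Every mouse H4 gene of these clusters encodes a closely similar or the same protein, so these are differences between gene copies. Hist1h4d was at 4.54, 9.39 and 7.24 FPKM in WT and at 17.1, 23.8 and 28.7 FPKM in KO, without overlap (log2 fold change 1.60, SE 0.26, adjusted p = 0.00118). Hist1h4b was at 0, 1.17 and 0 FPKM in WT and at 2.85, 3.66 and 1.60 FPKM in KO, also without overlap (log2 fold change 1.47, adjusted p = 0.00692). Hist1h4c was at 29.1, 12.9 and 14.5 FPKM in WT and at 5.70, 14.6 and 3.19 FPKM in KO, and KO 2 lay inside the WT range. Its call (log2 fold change −1.29, SE 0.48, adjusted p = 0.0441) was lost without WT 1, WT 2, WT 3, KO 1 or KO 3 (adjusted p up to 0.139). It was also lost under each other scaling, with no filter and with no intensity trend.

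Hist1h4h, the most abundant H4 gene, was at 18.4, 24.7 and 26.3 FPKM in WT and at 19.0, 20.7 and 13.5 FPKM in KO, which overlapped (log2 fold change −0.37, adjusted p = 0.128). Its sign turned under each other scaling. Hist1h4a was at 10.0, 14.1 and 6.04 FPKM in WT and at 7.12, 25.6 and 18.4 FPKM in KO. These values spread widely within KO, and the gene was called only when KO 1 was left out (adjusted p = 0.0214; otherwise 0.252). Hist1h4i had its 3 KO values (9.00, 6.69 and 4.51 FPKM) below its 3 WT values (9.07, 10.1 and 11.2 FPKM), but it was not called (adjusted p = 0.0532).

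**Figure D2:**
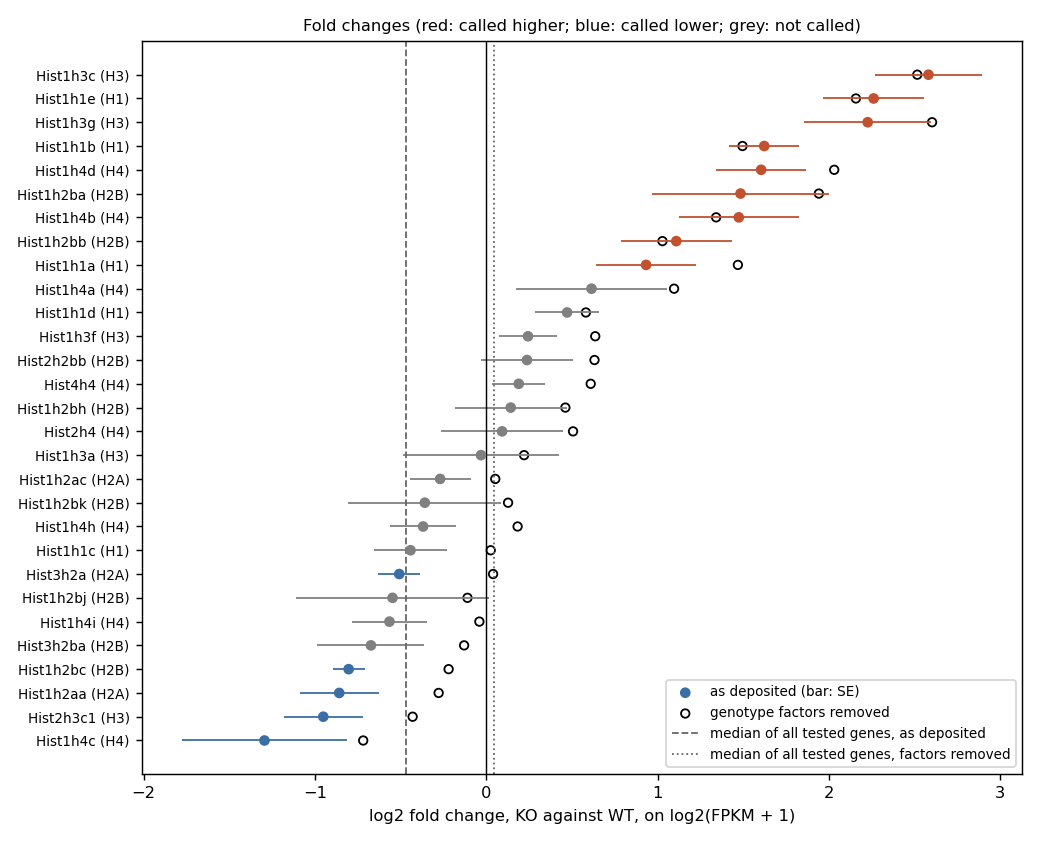
Log2 fold changes of the 29 tested genes, KO against WT on log2(FPKM + 1), as deposited (filled points, bars ± SE, red higher, blue lower, grey not called) and with the genotype factors removed (open circles). Hist1h3c is at the top with 2.58 and Hist1h4c at the bottom with −1.29; the dashed and dotted lines mark the medians of all tested genes, −0.47 and 0.043.

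The sum over the 68 genes was 651, 758 and 757 FPKM in WT and 499.9, 686 and 536 FPKM in KO, and KO 2 lay inside the WT range. The ratio of the means was 0.795 (SD 0.152, propagated from both groups). With Hist1h2bc left out the ratio was 1.08, and without the 3 most abundant genes, Hist1h2bc, Hist1h2aa and Hist1h1a, it was 1.32. The direction of the sum turned with the scaling, to 1.07 with equal totals, 1.14 with the median-ratio rescaling and 1.19 with the factors removed.

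By type, the KO to WT ratio of sums was 1.89 for H1 (SD 0.747), 0.592 for H2A (SD 0.187), 0.652 for H2B (SD 0.112), 2.61 for H3 (SD 0.848) and 1.08 for H4 (SD 0.245). Without the factors these were 2.84 (SD 1.12), 0.888 (SD 0.281), 0.978 (SD 0.168), 3.92 (SD 1.27) and 1.62 (SD 0.367). H1 and H3 were above 1 and H2A and H2B below 1 on both scales. Without the factors, however, the genotypes overlapped for H2A (WT 54.5 to 77.5, KO 50.1 to 79.5 FPKM) and H2B (WT 208 to 240, KO 199 to 261 FPKM). Each ratio kept its side when any 1 library was left out of the deposited values except that of H4 (0.953 to 1.19).

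The makeup of the pool within a library does not depend on the scaling. H2B took 63.9%, 63.2% and 61.2% of the summed FPKM of the 68 genes in the WT libraries and 53.2%, 50.8% and 50.7% in the KO libraries. Hist1h2bc alone took 57.3%, 56.0% and 55.2% in WT and 44.0%, 36.5% and 42.0% in KO. H2A took 16.7%, 20.4% and 20.0% in WT and 13.4%, 15.5% and 13.6% in KO. The shares of H2A and H2B were thus lower in every KO library than in any WT library. The lower H2A share came from Hist1h2aa: the other H2A genes took 3.11%, 2.85% and 2.99% in WT and 3.28%, 2.68% and 3.05% in KO, which overlapped.

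The remaining 3 types took larger shares in KO, again without overlap. H3 took 2.21%, 2.84% and 2.66% in WT and 6.998%, 8.58% and 9.77% in KO. The larger H3 share came from Hist1h3g (mean 5.33 to 29.4 FPKM) and Hist1h3c (0.798 to 9.11 FPKM), within H3 sums of 18.7 and 48.7 FPKM. The 1 H3 gene called lower, Hist2h3c1, fell from 6.48 to 2.87 FPKM. H1 took 4.60%, 2.87% and 6.15% in WT and 12.8%, 9.63% and 10.4% in KO. H4 took 12.5%, 10.7% and 10.1% in WT and 13.7%, 15.5% and 15.5% in KO, where the nearest libraries were WT 1 and KO 1. These shares add up to the whole and so are not independent of each other. H2B without Hist1h2bc took 5.90% to 7.20% in WT and 8.67% to 14.3% in KO. In KO 2, the library at 14.3%, Hist1h2ba was 60.7 of the 98.1 FPKM of this set.

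**Figure D3:**
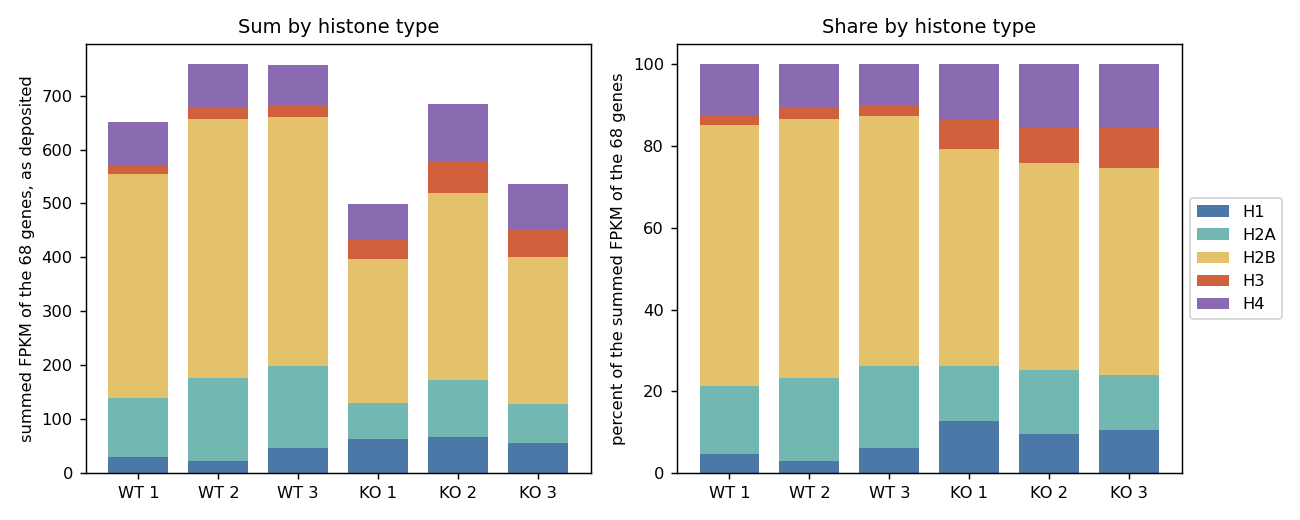
Stacked bars of the 68 clustered histone genes in each library by histone type: left, summed FPKM as deposited; right, percent of that sum. H2B takes 61.2% to 63.9% in the WT libraries and 50.7% to 53.2% in the KO libraries, and H3 takes 2.21% to 2.84% and 6.998% to 9.77%.

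By cluster, all 9 higher calls fell in Hist1, which had 23 tested genes and 3 lower calls. Of the 9, 5 passed the filter only through their KO values. Outside Hist1 6 genes were tested, with 0 higher and 2 lower by limma, Hist2h3c1 and Hist3h2a, and the same 2 at an unadjusted p under 0.05. Over all tested genes 9.29% were higher and 54.0% lower, so 6 genes are too few to read the 0 higher. The difference between Hist1 and the other clusters was not tested. Hist1 held 91.1%, 91.4% and 93.6% of the summed FPKM in WT and 91.7%, 93.5% and 91.9% in KO, which overlapped. The Hist3 genes summed to 36.3, 46.1 and 29.9 FPKM in WT and to 23.9, 22.1 and 23.3 FPKM in KO. The Hist2 sums overlapped (15.2 ± 1.16 and 14.9 ± 2.80 FPKM).

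Along the Hist1 cluster, higher and lower genes were intermingled. Of the first 19 genes in chromosome order 1 was tested, Hist1h1b, and the tested genes were mostly in the later part. Hist1h4c, Hist1h1c, Hist1h3c and Hist1h2bb are consecutive in the table's order (ranks 43 to 46), and their log2 fold changes were −1.29, −0.44, 2.58 and 1.11. Hist1h2ba and Hist1h2aa, ranks 53 and 54, also differed in sign.

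**Figure D4:**
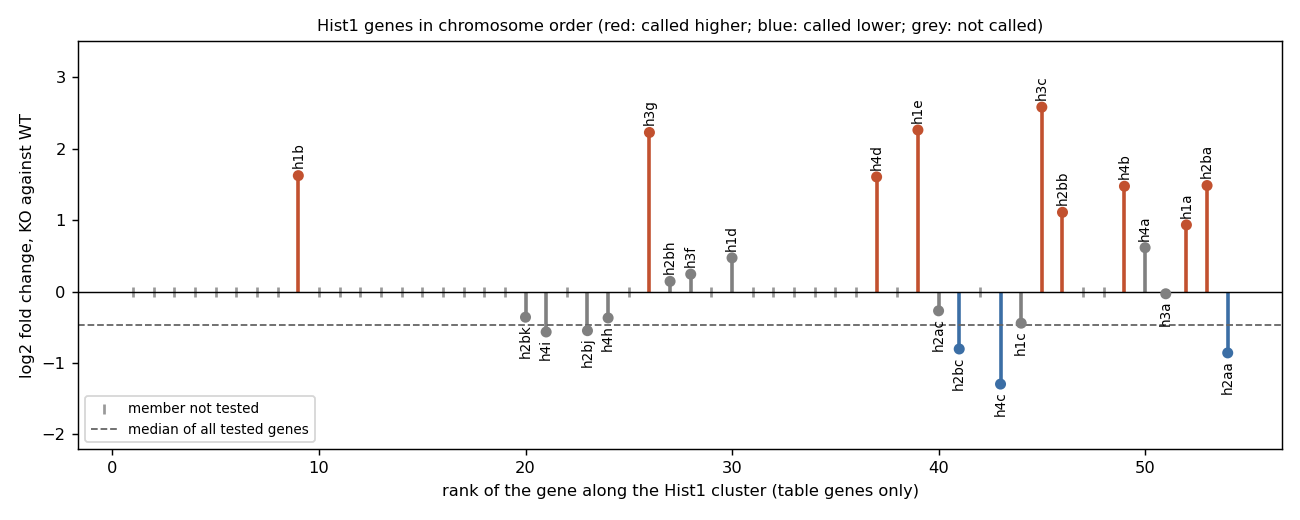
Log2 fold changes of the 23 tested Hist1 genes by their rank along chromosome 13, with grey ticks for Hist1 genes not tested; red is higher, blue lower and grey not called, and the dashed line is the median of all tested genes (−0.47). Genes with changes of opposite sign stand next to each other, as at ranks 43 to 46 and at ranks 53 and 54.

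The Hist1h2aa and Hist1h2ba pair is shown in sequence because its 2 genes start 280 bases apart, on opposite strands, and moved in opposite directions. Many H2A and H2B genes are arranged in this way around a common promoter. The 250 bases before the start of Hist1h2aa (RefSeq symbol H2ac1) lie between the pair at chr13:23934187-23934436 on the + strand of GRCm38.p6, from RefSeq. They share 220 bases with the 250 before the start of Hist1h2ba (H2bc1). Capitals mark the motifs named below, on either strand:
Hist1h2aa: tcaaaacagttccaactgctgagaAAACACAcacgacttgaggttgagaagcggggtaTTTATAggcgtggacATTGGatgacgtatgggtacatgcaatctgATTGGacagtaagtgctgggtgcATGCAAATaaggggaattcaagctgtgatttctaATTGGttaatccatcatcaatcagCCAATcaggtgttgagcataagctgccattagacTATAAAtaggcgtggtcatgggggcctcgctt
Within each library Hist1h2ba stood at 5.67%, 7.03% and 11.5% of the level of Hist1h2aa in WT and at 29.5%, 69.3% and 37.3% in KO. This ratio does not depend on the scaling and was higher in every KO library than in any WT library. That follows from the choice of a pair whose deposited values separated in opposite directions, so it is no separate support. The Hist1h2aa call was lost under each other scaling, and the Hist1h2ba call without WT 1, WT 2, KO 2 or KO 3.

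The same motifs were searched in the 300-base promoters (250 before and 50 after the start) of 61 members with a RefSeq promoter, on both strands and with overlaps allowed. The octamer ATTTGCAT, the site of POU factors, was in 7 of 17 H2A and 7 of 16 H2B promoters, 0 of the H1, H3 and H4 promoters, and 1.74% of all promoters. The 2 genes of a divergent pair can share such a window, so these counts are not independent. CCAAT, the letters of the NF-Y box, was in all 6 H1, 17 H2A, 16 H2B and 10 H3 promoters, in 3 of 12 H4 promoters and in 37.4% of all promoters. TATAAA was in 4 of 6 H1, 11 of 17 H2A, 8 of 16 H2B, 4 of 10 H3 and 8 of 12 H4 promoters, beside 13.6% of all promoters. AAACACA, the H1 box, was in 5 of 6 H1, 2 of 17 H2A and 2 of 16 H2B promoters, 0 of the H3 and H4 promoters, and 7.18% of all. A match is a description of the letters, not a site in use.

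Since the poly(A) tail decides what oligo-dT primes, the genes were also divided by where their annotated transcript ends. An end more than 100 bases past the stem-loop was annotated for 15 tested genes, of which 2 were higher (Hist1h1e and Hist1h4d) and 3 lower (Hist1h4c, Hist2h3c1 and Hist3h2a). An end within 100 bases was annotated for 8, of which 4 were higher and 0 lower (at an unadjusted p under 0.05 the same 4). Of these 4, Hist1h2bb, Hist1h3c and Hist1h4b passed the filter only through their KO values. Among genes with both means at 1 FPKM or more, 1 of 13 with the longer end and 1 of 5 with the shorter end were higher, and the medians were −0.27 and −0.36. The other 6 had no stem-loop in the annotation, and 3 of them were higher and 2 lower. Over all tested genes 9.29% were higher and 54.0% lower. The sources used here give no 3′ ends measured in these oocytes, so which ends the values come from was not analysed here.

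The precision of low copies can be read from the values themselves. In 7 H2B genes (Hist1h2bf, Hist1h2bh, Hist1h2bj, Hist1h2bk, Hist1h2bl, Hist1h2bm and Hist1h2bn) and 6 H4 genes (Hist1h4a, Hist1h4b, Hist1h4c, Hist1h4d, Hist1h4f and Hist1h4k), 50 of 50 values above 0 were whole multiples of 1 step per library, within 0.01 step. These genes were grouped after their values were seen. The step of each library was fitted so that all their values came out whole within 0.01, so the 50 of 50 is not a test. The step was 0.445 to 0.754 FPKM for the H2B genes and 0.712 to 1.21 FPKM for the H4 genes. In these steps Hist1h4d stood at 5, 8 and 6 in WT and 24, 26 and 36 in KO. Hist1h4b stood at 0, 1 and 0 in WT and 4, 4 and 2 in KO. Hist1h4c stood at 32, 11 and 12 in WT and 8, 16 and 4 in KO. Such levels rest on few units of counting, and whether a step is 1 fragment or a share of a fragment was not determined.

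Near-identical copies limit the assignment of reads. Among the 68 genes 38 have another member with at least 98% identity over the coding sequence and 8 have an identical one, such as Hist2h2aa1 and Hist2h2aa2. Hist1h2bc is 98.9% identical to Hist1h2bj, and Hist1h3g 99.3% to Hist1h3h. The closest copies of Hist1h4d and Hist1h2aa, Hist1h4j and Hist2h2ac, are at 94.2% and 82.7%. How reads that match several copies were divided is unknown here, so levels of single copies with close relatives are uncertain. Hist1h3h was at or under 0.311 FPKM in every library and Hist1h4j at 0.

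The genes that act on histone mRNA and protein were read from lists. Each stands beside 9.29% higher and 54.0% lower over all genes as deposited, and 25.7% and 18.0% without the factors. For 3′ end processing, 23 genes were tested, 3 higher and 13 lower, with a median log2 fold change of −0.46. Slbp, which binds the stem-loop, was at 2616 ± 31.0 FPKM in WT and 1152 ± 93.1 FPKM in KO (log2 fold change −1.19, adjusted p = 0.000162), and stayed lower with the factors removed. Cpsf3, the endonuclease, fell from 73.9 ± 4.73 to 31.8 ± 2.29 FPKM. Wdr33 (161 to 93.1 FPKM) and Ncbp2, of the cap-binding complex (108 to 64.2 FPKM), were called lower as deposited, but neither call held under the median-ratio rescaling or without the factors. The 3 higher genes were Snrpb, a protein of the Sm ring (39.1 ± 12.6 to 173 ± 54.9 FPKM), Ncbp1 (3.07 to 8.22 FPKM) and Mblac1 (2.34 to 3.74 FPKM). Mblac1 overlapped between the groups, and its call was lost without 4 of the 6 libraries (adjusted p up to 0.148, without KO 3). Snrpb, Ncbp1 and Mblac1 were named after their values were seen, because they are so few. Without the factors the list had 7 higher and 5 lower, where 25.7% and 18.0% of all tested genes were.

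Of 15 tested genes for histone gene transcription 4 were higher and 5 lower, with a median of −0.10. Ccne1, the cyclin E that activates NPAT, rose from 12.0 ± 0.480 to 38.9 ± 13.0 FPKM. Yy1 rose from 2.56 ± 0.426 to 15.6 ± 5.90 FPKM (log2 fold change 2.15), and Cdk9 from 6.17 ± 0.802 to 14.4 ± 2.85 FPKM. E2f2 fell from 21.5 ± 1.61 to 7.19 ± 0.273 FPKM (log2 fold change −1.46). Ccnt1, the cyclin partner of CDK9, was the fourth higher gene, and Nfyc, Ttf2, Hinfp and E2f1 were the other lower ones, named after their values were seen. Of these the calls of Hinfp and E2f1 were each lost without 5 of the 6 libraries. Npat itself, the coactivator of the clustered genes, was at 4.66 ± 0.593 and 6.54 ± 1.25 FPKM and not called as deposited (adjusted p = 0.0743). Limma called it higher with equal totals (adjusted p = 0.0140), with the median-ratio rescaling (0.0063) and with the factors removed (0.0058). Without the factors 8 genes were higher and 1 lower, where 25.7% and 18.0% of all tested genes were.

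Of 12 tested genes of histone mRNA translation and decay 2 were higher and 7 lower, with a median of −0.52. Lsm1, which binds the end of decaying histone mRNA, rose from 47.3 ± 7.72 to 117 ± 28.4 FPKM. Pnrc2, named after its values were seen, rose from 4.65 to 8.46 FPKM, a call lost without KO 1 (adjusted p = 0.0562). Dis3l2, a nuclease for uridylated RNA, fell from 6.68 ± 1.00 to 2.11 ± 0.251 FPKM, Atr from 7.11 ± 1.04 to 1.84 ± 0.618 FPKM and Exosc10, of the nuclear exosome, from 60.4 ± 6.64 to 30.0 ± 1.15 FPKM. Once the factors were removed 4 were higher and 3 lower, where 25.7% and 18.0% of all tested genes were. Of 22 histone chaperone genes 0 were higher and 16 lower by limma, with 17 at an unadjusted p under 0.05 and a median of −0.63. Supt16h and Ssrp1, the subunits of FACT, fell from 134 ± 18.8 to 45.2 ± 2.35 FPKM and from 66.4 ± 3.45 to 34.6 ± 1.51 FPKM. Supt6h fell from 40.3 ± 3.42 to 15.1 ± 0.948 FPKM and Rbbp7 from 1838 ± 42.2 to 954 ± 68.6 FPKM. Of the chaperone genes 4 were higher and 7 lower without the factors, beside the same 25.7% and 18.0%.

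Most histone variant genes outside the clusters have polyadenylated mRNAs and are also expressed outside S phase. Of 12 tested, 3 were higher and 6 lower, with a median of −0.19. All 12 had both means above 1 FPKM. The clustered genes had a median of −0.27 over the 23 with both means at 1 FPKM or more, and 0.14 over all 29 tested. H2afz, which encodes H2A.Z, was higher, at 101 ± 11.6 FPKM in WT and 636 ± 163 FPKM in KO (log2 fold change 2.62). H2afv, its close relative, rose from 92.1 ± 4.05 to 151 ± 22.4 FPKM, and H2afy, named after its values were seen, from 20.3 ± 1.45 to 41.9 ± 10.2 FPKM. H1foo, the oocyte linker histone, was at 12471 ± 859 FPKM in WT and 7214 ± 414 FPKM in KO, far above the 26.1 ± 12.6 and 47.6 ± 6.83 FPKM of Hist1h1a. H2afx was at 425 ± 20.6 and 252 ± 28.3 FPKM. Both H1foo and H2afx were called lower as deposited (log2 fold changes −0.79 and −0.75), and both calls were lost under the median-ratio rescaling and without the factors. Of the variant genes 7 were higher and 0 lower by limma without the factors, so all 6 lower calls were lost. Over all tested genes 25.7% were higher and 18.0% lower in that setting. At an unadjusted p under 0.05 the variant counts were 7 and 1.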

How the data were processed

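Polyadenylated RNA came from 3 WT and 3 KO libraries of 10 oocytes each, grouped by the genotype in the titles. Per the labels, the deposited table holds FPKM that the authors normalized to ERCC spike-ins, 1 row per gene symbol. The submitters' processing notes name TopHat2 2.1.1, Cufflinks 2.2.1 and build mm9. The annotation, the filters and the handling of multiply matching reads are not given. Read counts were not analysed here, so the depth per library is unknown and no interval from counts is given.

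The genotype factors were found from the values of at least 1 FPKM. Divided by 2 in WT and by 4/3 in KO, 100% of these had the 6 significant digits of Cufflinks output. Any other of 91 fractions gave at most 76.8%, apart from those that differ by a power of 10. The digits cannot tell such fractions apart, and that of the smallest terms was taken. With limma 3.58.1 (R 4.3.3), log2(FPKM + 1) was compared for genes averaging 1 FPKM or more, by lmFit and a trended eBayes, two-sided. The Benjamini-Hochberg adjustment ran over all tested genes. The script was tested on simulated data. Sums and shares have no test. The members and lists were chosen with earlier results of these data known. Named were, by rule, the 3 most abundant genes of each histone type, all called members, and up to 4 genes of smallest p per list; others are marked as chosen after seeing their values, or are given as untested or near a threshold. Alternatives were pseudocounts of 0.1 and 5, no filter, a mean of at least 10 FPKM, 3 scalings, no trend, a replicate block and each library left out.

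Gene properties came from GENCODE vM21 (mm10) and promoters from RefSeq (GRCm38.p6, 67 members matched). Neither build is that of the values, so coordinates are given for the printed promoter only. Python 3.11.15, pandas 2.3.3, numpy 2.4.6 and matplotlib 3.10.9 were used.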

Additional observations from a re-analysis of the deposited data

How the results depend on the processing

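The 5 lower calls became 1 with equal totals, 1 with the median-ratio rescaling and 0 with the genotype factors removed. Each of these scalings raised the median of all tested genes, which favours losing lower calls and keeping higher ones. The 9 higher calls became 4 of 11 tested at a mean of at least 10 FPKM. The ratio of summed FPKM, 0.795, became 1.07 with equal totals, 1.14 with the median-ratio rescaling, 1.19 with the factors removed, 1.32 without the 3 most abundant genes and 1.08 without Hist1h2bc, an alternative chosen after seeing the data. With each library left out in turn, 6 to 10 members were higher (6 without WT 2), 4 to 5 were lower, and the ratio was 0.717 to 0.846.

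Signs turned for Hist1h1c (0.026 with the factors removed), Hist1h2ac (0.024 with the median-ratio rescaling, 0.052 with the factors removed), Hist1h4h (0.043 with equal totals, 0.12 with the median-ratio rescaling, 0.18 with the factors removed) and Hist3h2a (0.039 with the factors removed). The cause of these changes was not tested.

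Over the 39 genes named by rule, 526 of their values under an alternative kept direction and side of the threshold, 39 lost the call, 2 gained it and 7 reversed. Same-numbered libraries did not pair (correlations of their deviations 0.141, −0.099 and 0.038). With the number as a replicate block 9 members were higher and 5 lower. Low copies rest on few steps of counting, and 3 libraries per genotype limit what can be called.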
